A study of Mus musculus with 8 samples.

Results

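The hedgehog pathway was followed through 9 genes chosen by name: the ligand genes Shh and Ihh, the receptor gene Ptch1, the signal transducer Smo, the co-receptor Boc, the decoy receptor Hhip, and the transcription factor genes Gli1, Gli2 and Gli3. Each of the 9 had 1 probe set with a single gene symbol, among 22180 genes measured. They were compared in E14.5 mouse kidneys, where E stands for the embryonic day, with 1 array for each embryo and 4 embryos in each group. Grb2_cKO embryos carry the genotype Grb2 UB-cKO, a knockout of the adaptor gene Grb2 limited to the ureteric epithelium, and controls are wild-type. Both kidneys of an embryo were pooled and all embryos came from 1 litter. The sources used here do not name the Cre driver or the strain. Values are log2 probe-set values, differences are Grb2_cKO minus control, and a gene is said to have risen or fallen where limma's adjusted p over all 22180 genes was under 0.05.

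A hedgehog ligand binds PTCH1 and thereby releases SMO, which acts in the primary cilium on the GLI factors. GLI2 is the main activator, GLI3 works largely as a repressor in the absence of ligand, and Gli1, Ptch1 and Hhip are themselves induced by the pathway. BOC and its relative CDON are membrane proteins that help PTCH1 bind ligand. In the developing kidney, SHH comes from the epithelium of the ureter and the medullary collecting ducts and acts on the mesenchyme around it, where it promotes growth and smooth muscle formation, while Ihh is known from maturing tubules.

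Grb2 itself stood at 8.68, 8.65, 8.61 and 8.66 in the controls and at 8.36, 8.17, 8.22 and 8.06 in Grb2_cKO replicates 1 to 4, a difference of -0.45 (SE 0.07, adjusted p = 0.0017). The knockout concerns 1 epithelium of a whole organ, and the sources used here do not say which part of the transcript the probe set reads. Array medians ran from 6.61 to 6.72, and the number of arrays limits the precision. Sex-linked genes separated the groups in part: 3 Y-linked genes averaged 9.94 to 10.1 in Grb2_cKO, and among controls 9.94 in replicate 3 but 4.09 to 4.24 in replicates 1, 2 and 4, with Xist running the opposite way. Results are therefore given with that Y-linked mean as a covariate too, a fit in which control replicate 3 carries the comparison, since no other control was high.

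Gli2 and Boc rose about 2-fold in Grb2_cKO kidneys, Smo, Gli1 and Gli3 rose 1.21-fold, 1.22-fold and 1.18-fold, and neither ligand gene, nor Ptch1 or Hhip, passed the threshold. Thus 5 of the 9 genes rose and 0 fell in limma, where 13.7% of all genes rose and 14.3% fell. Among those that did not pass, Hhip was lower with an unadjusted p of 0.0234 in limma. The share of all genes at an unadjusted cut was not counted, so later counts at that cut have no background beside them. The median log2 fold change of the 9 genes was 0.23, beside 0.0058 over all genes. For these 5 genes every Grb2_cKO embryo lay above every control, which was so for 15.2% of all genes. With the Y-linked covariate 2 of the 9 rose, Boc and Gli2, beside 2.85% of all genes.

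**Figure D1:**
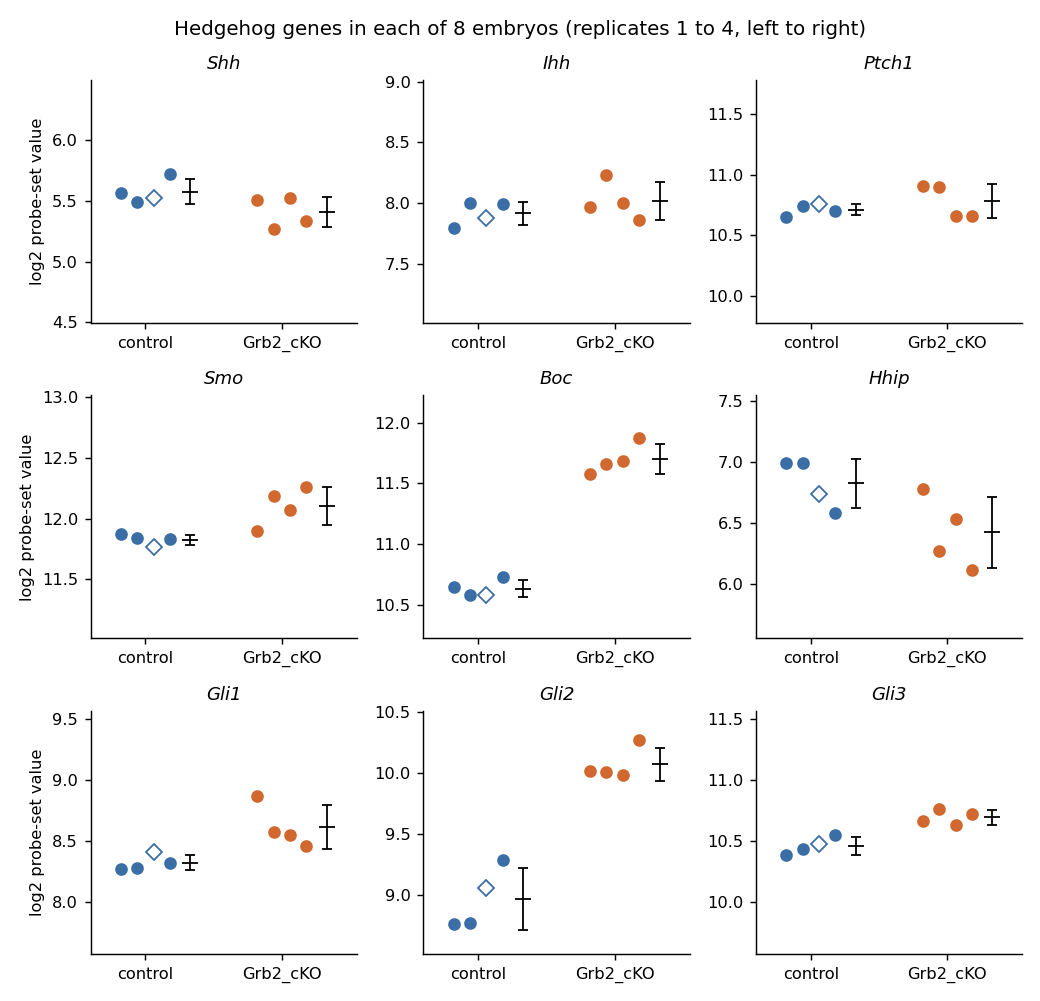
Log2 probe-set values of the 9 hedgehog genes in each embryo, with controls in blue and Grb2_cKO in orange, replicates 1 to 4 from left to right, and black bars for the mean ± SD of 4 embryos. Every panel spans 2 log2 units; the open diamond is control replicate 3. Boc and Gli2 stand well apart between the groups, with gaps of 0.85 and 0.70, while Ptch1 and Ihh overlap.

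Sequence just upstream of the genes is shown for Gli3 and Smo, which rose, and for Hhip, a target of the pathway that did not pass, so that the start regions can be read beside the values. The sequences are from RefSeq (GRCm38.p6), 5′ to 3′ on the strand of the gene, and end before the first base of the gene as annotated. Of the 9 genes, 6 had an entry in the promoter table used. The windows of Gli2 and Ptch1 lie inside a longer annotated form of the gene and are not printed. Capitals mark GC boxes, the letters GGGCGG or, on the other strand, CCGCCC.
Gli3 (chr13:15463473-15463722, + strand): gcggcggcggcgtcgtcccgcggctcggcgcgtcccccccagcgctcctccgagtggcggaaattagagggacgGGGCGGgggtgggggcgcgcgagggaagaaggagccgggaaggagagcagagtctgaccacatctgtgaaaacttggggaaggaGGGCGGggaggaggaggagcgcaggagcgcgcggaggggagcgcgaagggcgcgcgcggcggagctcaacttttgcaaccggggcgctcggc
Smo (chr6:29735247-29735496, + strand): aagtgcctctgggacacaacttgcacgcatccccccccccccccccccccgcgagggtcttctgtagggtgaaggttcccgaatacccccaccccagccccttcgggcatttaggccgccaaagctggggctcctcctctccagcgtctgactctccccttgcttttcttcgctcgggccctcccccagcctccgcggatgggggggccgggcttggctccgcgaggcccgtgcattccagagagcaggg
Hhip (chr8:80058061-80058258, - strand): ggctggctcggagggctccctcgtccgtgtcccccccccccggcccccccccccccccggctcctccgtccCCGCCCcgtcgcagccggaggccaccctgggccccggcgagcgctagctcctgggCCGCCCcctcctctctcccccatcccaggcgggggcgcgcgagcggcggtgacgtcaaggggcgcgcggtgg

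Over the 250 bases before the start, 5 of the 6 genes had a GC box on either strand, against 32.7% of 32851 promoter windows of the same length. Smo was the 1 without. The 6 windows held 67.2% to 78.4% G and C, above the median of 52.4% over all windows. The 7 letters CCACCCA, which lie in the known GLI binding motif, were searched on both strands as well. They were in 0 of the 6 windows and in 8.11% of all windows, which says only that these letters are not in the 250 bases searched.

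Of the ligands, Ihh did not pass. It stood at 7.80, 8.0, 7.88 and 7.99 in controls and at 7.97, 8.23, 8.0 and 7.86 in Grb2_cKO, a difference of 0.10 (95% interval -0.11 to 0.30, adjusted p = 0.498). The groups overlapped, with the highest value in Grb2_cKO replicate 2.

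Shh read by its single-symbol probe set did not pass either, at 5.56, 5.49, 5.52 and 5.72 in controls and 5.51, 5.27, 5.52 and 5.33 in Grb2_cKO (-0.17, 95% interval -0.36 to 0.02, adjusted p = 0.177). The groups overlapped, and only 21.6% of genes had a lower mean on these arrays. A second probe set is annotated to Shh and to the neighbouring RNA gene 9530036O11Rik together, and by rule it names no gene. It stood at 7.6, 7.62, 7.44 and 7.6 in controls and at 7.31, 7.2, 6.7 and 6.9 in Grb2_cKO, a difference of -0.54 (SE 0.13, 95% interval -0.82 to -0.26), with an adjusted p of 0.0102 in limma. All 4 Grb2_cKO values lay below all controls.

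These 2 probe sets differ in where they fall in the array's numbering. Among the 10 named probe sets on either side of the single-symbol one, 15 of 16 genes with a known strand lie on the plus strand, while around the second all 14 lie on the minus strand. For the 6 hedgehog genes whose own strand was in the table, most numbered neighbours lay on that same strand. Mouse Shh is transcribed from the minus strand. Whether the single-symbol probe set reads the Shh transcript was not tested, so its values give no firm account of the ligand.

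At the membrane, Boc rose and Ptch1 did not pass. Boc stood at 10.65, 10.58, 10.58 and 10.73 in controls and at 11.58, 11.66, 11.68 and 11.87 in Grb2_cKO. The rise was 1.06 (SE 0.08), or 2.09-fold (95% interval 1.85 to 2.36), with an adjusted p of 4.32e-05. Each group varied little (SD 0.07 and 0.12, n = 4 each), and 230 of the 22180 genes had a larger log2 fold change. With the Y-linked covariate Boc stood at 1.12 (95% interval 0.82 to 1.42, adjusted p = 0.00649).

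Ptch1 stood at 10.65, 10.74, 10.76 and 10.70 in controls and at 10.91, 10.90, 10.66 and 10.66 in Grb2_cKO, a difference of 0.07 (95% interval -0.11 to 0.25, adjusted p = 0.603). Grb2_cKO replicates 1 and 2 lay above every control, and replicates 3 and 4 within the control range. The interval leaves out a rise of more than 0.25 on the log2 scale. The shift of Boc exceeded that of Ptch1 by 0.99 (95% interval 0.65 to 1.39, exact permutation p = 0.0286, the smallest that 4 against 4 embryos allow). Adjusted over the 4 gene pairs compared, that permutation p was 0.0381. The pair was chosen after the values were seen, so the p describes a difference already in view.

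Smo rose by a small amount. It stood at 11.87, 11.84, 11.77 and 11.83 in controls and at 11.90, 12.19, 12.07 and 12.26 in Grb2_cKO. The difference was 0.28 (SE 0.08), or 1.21-fold (95% interval 1.06 to 1.38), with an adjusted p of 0.0352. Grb2_cKO replicate 1 exceeded the highest control by 0.03 only. The call was kept without Grb2_cKO replicate 1 (0.34, adjusted p = 0.0105) and lost without any 1 of the other 7 embryos (0.23 to 0.29, adjusted p = 0.0569 to 0.087). It was also lost after centring on array medians (adjusted p = 0.0601) and with the Y-linked covariate (0.33, adjusted p = 0.223).

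Hhip encodes a membrane protein that binds hedgehog ligands and keeps them from PTCH1. It stood at 6.99, 6.99, 6.74 and 6.58 in controls and at 6.78, 6.27, 6.53 and 6.11 in Grb2_cKO, a difference of -0.40 (SE 0.15, 95% interval -0.74 to -0.07, adjusted p = 0.074). The groups overlapped. The SD was 0.20 in controls and 0.30 in Grb2_cKO, the latter the largest of the 9 genes in that group. Hhip passed as lower without control replicate 4 (-0.48, adjusted p = 0.0487) or Grb2_cKO replicate 1 (-0.52, adjusted p = 0.0209). It also passed after quantile normalization (0.0483), centring (0.0497) or leaving out the dimmest genes (0.0499), whereas the Y-linked covariate left it at -0.30 (adjusted p = 0.564).

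All 3 Gli genes rose, Gli2 by much the most. Gli2 stood at 8.76, 8.77, 9.06 and 9.29 in controls and at 10.02, 10.01, 9.99 and 10.27 in Grb2_cKO. The rise was 1.10 (SE 0.13), or 2.15-fold (95% interval 1.77 to 2.61), with an adjusted p of 0.000271. The controls spread over 0.26 (SD), and the lowest Grb2_cKO embryo still exceeded the highest control by 0.70. With the Y-linked covariate Gli2 stood at 1.01 (95% interval 0.53 to 1.48, adjusted p = 0.031).

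Gli1, the usual readout of active signalling, stood at 8.27, 8.28, 8.41 and 8.32 in controls and at 8.87, 8.57, 8.55 and 8.46 in Grb2_cKO. It rose by 0.29 (SE 0.09), or 1.22-fold (95% interval 1.06 to 1.41), with an adjusted p of 0.0424. The value of Grb2_cKO replicate 1 was the highest of the 8, and the lowest Grb2_cKO embryo exceeded the highest control by 0.05. The call was kept without Grb2_cKO replicate 4 (0.34, adjusted p = 0.0282) and lost without any 1 of the other 7 embryos (0.20 to 0.32, adjusted p = 0.0537 to 0.103). Under the Y-linked covariate it was at 0.21 (adjusted p = 0.516).

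Gli3 stood at 10.38, 10.43, 10.47 and 10.55 in controls and at 10.66, 10.76, 10.63 and 10.72 in Grb2_cKO. It rose by 0.23 (SE 0.07), or 1.18-fold (95% interval 1.06 to 1.30), with an adjusted p of 0.0252. The groups lay 0.08 apart. The call was kept without control replicate 4 (0.26, adjusted p = 0.0236), Grb2_cKO replicate 1 (0.25, adjusted p = 0.0421) or replicate 3 (0.25, adjusted p = 0.04), and lost without any 1 of the other 5 embryos (0.21 to 0.24, adjusted p = 0.0542 to 0.0709). It was lost after centring on array medians (adjusted p = 0.0647) and with the Y-linked covariate (0.22, adjusted p = 0.315).

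**Figure D2:**
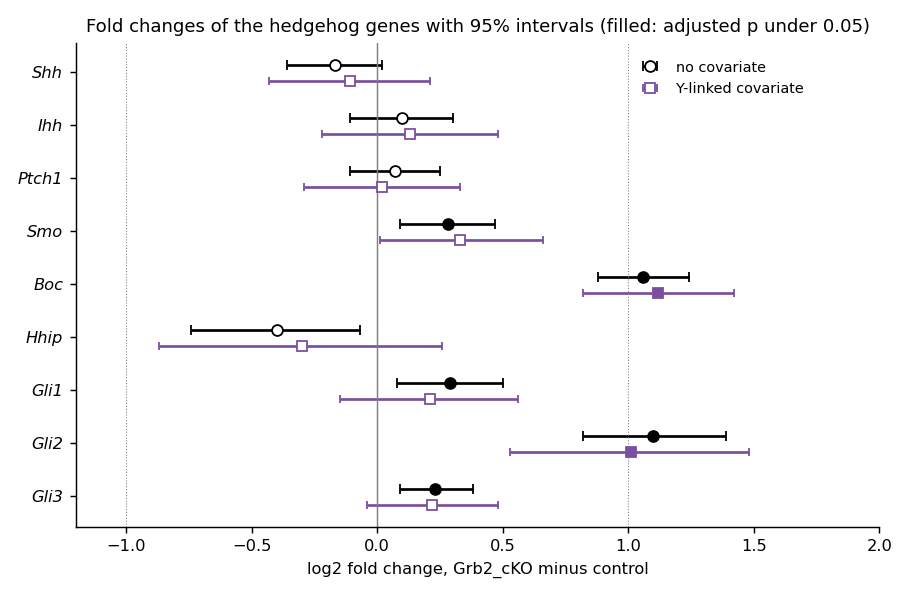
Log2 fold changes of the 9 genes, Grb2_cKO minus control, with 95% intervals, without a covariate (black circles) and with the Y-linked covariate (purple squares). Filled symbols have an adjusted p under 0.05, and dotted lines mark a 2-fold change. Boc and Gli2 are filled in both fits, and Smo, Gli1 and Gli3 only without the covariate.

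The rise of Gli2 was larger than that of the other Gli genes. It exceeded that of Gli1 by 0.81 on the log2 scale (95% interval 0.18 to 1.32) and that of Gli3 by 0.87 (0.51 to 1.21). Each of these differences between genes, taken within each embryo, separated the groups without overlap (two-sided exact permutation p = 0.0286, the smallest possible, and 0.0381 after Benjamini-Hochberg adjustment over the 4 gene pairs compared). The pairs were chosen after the values were seen. Whether the ratio of GLI proteins changed cannot be read from RNA.

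Genes around the 9 were taken from a list of 33 other pathway genes, of which 29 were measured. Of these, 5 rose, 4 fell and 20 did not pass, a share of 31.0% called beside 28.1% of all genes, and their median was 0.04. Of the 5 risers, 4 were genes for ligand release or co-receptors. Cdon, the relative of Boc, stood at 10.17 ± 0.09 in controls and 11.23 ± 0.15 in Grb2_cKO (SD, n = 4 each) and rose by 1.05 (SE 0.09). Its shift differed from that of Boc by 0.01 (95% interval -0.15 to 0.20, exact permutation p = 0.914). The third co-receptor gene, Gas1, did not pass (0.26, adjusted p = 0.122).

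Of 7 genes for making and releasing the ligand, 3 rose and 4 did not pass, a share of 42.9% called beside 28.1% of all genes. Scube2 and Scube1, which encode secreted proteins that help free the lipid-bearing ligand, rose by 1.2 (SE 0.09) and 0.94 (SE 0.11). Scube3 stood at -0.25 (adjusted p = 0.0693). Disp1, which moves the ligand out of the cell that makes it, rose by 0.47 (SE 0.08). Dhh, the ligand gene known from the testis and peripheral nerve, stood at 0.19 (adjusted p = 0.313). Cdon, Scube1 and Scube2 passed with the Y-linked covariate too, at 0.97, 0.85 and 1.08 (adjusted p = 0.013, 0.0304 and 0.00875), and Disp1 did not (0.50, adjusted p = 0.0636).

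Among 18 genes of the cilium and of Gli regulation 1 rose and 4 fell, a share of 27.8% called beside 28.1% of all genes, with a median of -0.02. Mosmo, which lowers the amount of SMO at the membrane, fell by 0.52 (SE 0.08), and Mgrn1, a ubiquitin ligase gene of the same control, rose by 0.28 (SE 0.06). Spop, an adaptor for the breakdown of GLI proteins, fell by 0.45 (SE 0.08), the kinase gene Csnk1a1 by 0.25 (SE 0.07) and Efcab7, of a ciliary complex, by 0.56 (SE 0.12). Sufu, the main inhibitor of the GLI factors, stood at 0.05 (adjusted p = 0.685) and Kif7 at -0.12 (adjusted p = 0.268). Of these 5, limma passed 0 with the Y-linked covariate, and 3 had an unadjusted p under 0.05. The differences of Mosmo, Spop and Mgrn1 stayed near their size in that fit, at -0.47, -0.47 and 0.29 (adjusted p = 0.0705, 0.0879 and 0.165), while Efcab7 stood at -0.32 and Csnk1a1 at -0.20 (adjusted p = 0.326 and 0.415).

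**Figure D3:**
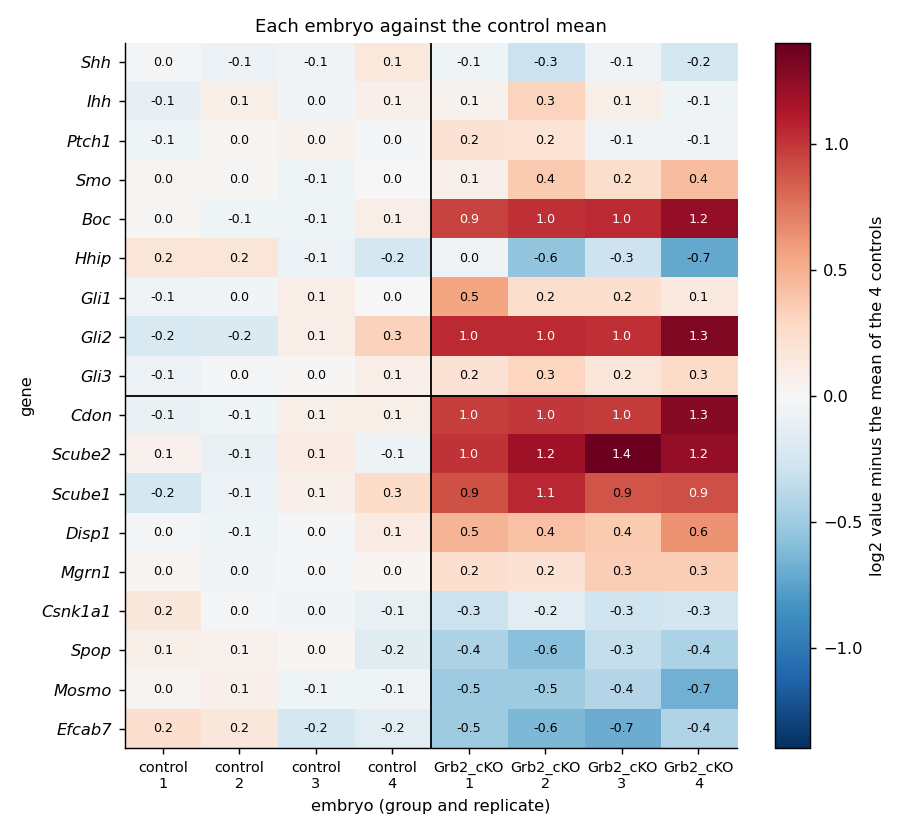
Log2 value of each embryo minus the mean of the 4 controls, for the 9 hedgehog genes (above the line) and the 9 other pathway genes that passed (below), with embryos in columns and printed numbers rounded to 1 decimal. Boc, Gli2, Cdon, Scube1 and Scube2 are raised in each Grb2_cKO embryo, and Gli1 most in replicate 1.

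Genes that respond to hedgehog in mesenchyme or in the early kidney, a list of 19, went both ways. Of these, 5 rose, 4 fell and 10 did not pass, a share of 47.4% called beside 28.1% of all genes, with a median of 0.06. Igfbp6, a binding protein for insulin-like growth factors, rose by 0.88 (SE 0.12), Sfrp1, a secreted inhibitor of WNT signalling, by 0.74 (SE 0.11), Mtss1 by 0.35 (SE 0.08), Bmp4 by 0.30 (SE 0.09) and Foxl1 by 0.23 (SE 0.07). Mycn fell by 1.13 (SE 0.10), Pax2 by 0.96 (SE 0.14), Sall1 by 0.37 (SE 0.08) and the cyclin gene Ccnd1 by 0.33 (SE 0.07). Pax2 and Sall1 are also genes of the ureteric bud or of nephron progenitors. Foxf1, a mesenchymal target, spread from 8.06 to 9.44 in Grb2_cKO against 8.35 to 8.80 in controls and did not pass (0.31, adjusted p = 0.41). Mycn at -1.07 and Pax2 at -1.04 were the 2 of the 9 that passed with the Y-linked covariate, in which Igfbp6 stood at 0.75 and Sfrp1 at 0.57 (adjusted p = 0.0572 and 0.0909).

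Marker lists of the cell types that make and receive the signal were read too. In these whole kidneys, more cells of a type and more RNA per cell cannot be told apart. In the list of ureteric mesenchyme and smooth muscle, 5 of 14 rose, with a median of 0.28 and the other 9 short of the threshold. That is a share of 35.7% called beside 28.1% of all genes. Tbx18 rose by 1.12 (SE 0.14), Myocd by 0.94 (SE 0.18) and Tshz3 by 0.81 (SE 0.06). The list averaged 8.52 to 8.76 over the control embryos and 8.82 to 9.18 over the Grb2_cKO embryos. Of the 5 risers, Tbx18 and Tshz3 passed with the Y-linked covariate, and Myocd did not (0.63, adjusted p = 0.224). In the stroma list 13 of 17 rose and 1 fell (median 0.54), with a list mean of 10.45 to 10.60 against 10.94 to 11.09. The share called was 82.4%, beside 28.1% of all genes. Of the 14 changed genes, 5 passed with the Y-linked covariate, in which the list's median was 0.41. Gli2 rose by more than 16 of these 17 stromal genes and Boc by more than 15. The part of more stroma in the rise of Gli2 and Boc was not tested.

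On the epithelial side, 6 of 19 genes of ducts and urothelium fell and 1 rose (median -0.13), with a list mean of 8.19 to 8.33 against 7.80 to 8.04. The share called was 36.8%, beside 28.1% of all genes. Calb1, Epcam, Krt18 and Gata3 fell by 3.53, 1.14, 0.63 and 0.41 on the log2 scale. The 1 that rose was the keratin gene Krt19 (0.48, adjusted p = 0.0217). Of the urothelial genes, Upk1b stood at 0.40, Upk1a at 0.35, Foxa1 at 0.31, Upk3a at 0.10, Upk2 at 0.0 and Trp63 at -0.13. None of them passed (adjusted p = 0.324, 0.0941, 0.0859, 0.412, 0.991 and 0.257). The water channel genes of the collecting duct, Aqp3 at 0.38 and Aqp2 at -0.06, were also short of the threshold (adjusted p = 0.172 and 0.762). Wnt7b, a ligand gene of the duct's stalk, stood at -0.06 (adjusted p = 0.732). With the Y-linked covariate Krt19 was at 0.30 (adjusted p = 0.484), and Gata3 at -0.46 (adjusted p = 0.107), among the 4 of these 7 calls that were lost. All 9 measured genes of the ureteric tip fell (median -1.49, list mean 8.97 to 9.19 against 7.14 to 7.56), and 8 of them also passed once the Y-linked mean was a covariate. The list of nephron progenitors had 8 of 10 lower, a share of 80.0% beside 14.3% of all genes. Its median was -1.14, with a list mean of 10.02 to 10.17 against 8.77 to 9.29. Of these 8, 5 passed with the Y-linked covariate, in which the list's median was -1.08. Six2 and Eya1 were among those lost, at -2.02 and -1.45 (adjusted p = 0.124 and 0.116). For the proximal tubule, 3 of 10 rose and 7 did not pass (median 0.42, list mean 7.46 to 7.80 against 7.71 to 8.44), a share of 30.0% called beside 28.1% of all genes. With the Y-linked covariate 1 of these 3 passed, and the median was 0.33.

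Marker lists of other cells were read in the same fit, in which 13.7% of all genes rose. The share that rose was larger than that in the macrophage, erythroid and endothelial lists. Of 10 macrophage genes 7 rose (median 0.87, list mean 7.17 to 7.35 against 7.95 to 8.38), of 8 erythroid genes 4 rose (median 0.63, 6.50 to 7.03 against 7.26 to 7.69), and of 10 endothelial genes 8 rose (median 0.32, 9.72 to 9.81 against 10.06 to 10.32). Of these risers, 3 of 7 macrophage, 1 of 4 erythroid and 0 of 8 endothelial genes passed in limma with the Y-linked covariate (6 of the 8 at an unadjusted p under 0.05). The medians of the 3 lists in that fit were 0.74, 0.70 and 0.31, near those without the covariate. For tissue next to the kidney, 2 genes were called in each of the adrenal, cartilage and gonad lists, of 10, 8 and 6 measured, which lies near the 28.1% of all genes. In the adrenal list 1 of 10 rose and 1 fell (median 0.18, list mean 5.92 to 6.01 against 5.93 to 6.16), in the cartilage list 1 of 8 rose and 1 fell (median -0.03, 6.57 to 6.69 against 6.53 to 6.71), and in the gonad list 2 of 6 rose (median 0.17, 6.45 to 6.6 against 6.69 to 6.78). With the Y-linked covariate limma passed 0 of the 2 called genes in each of these 3 lists, with 2, 0 and 2 of them at an unadjusted p under 0.05. Of 6 genes of neural crest, glia and neurons, Stmn2 rose by 2.48 and Elavl4 fell by 0.93 (median 0.10, list mean 6.55 to 6.87 against 7.0 to 7.25). The share called was 33.3%, beside 28.1% of all genes. Stmn2 was the only riser, and Tubb3 at 0.20, Foxd3 at 0.12, Prph at 0.08 and Sox10 at -0.02 did not pass. These arrays have no zero, so absence of a marker cannot be read, and the part of these cells in the values of the 9 genes was not tested.

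**Figure D4:**
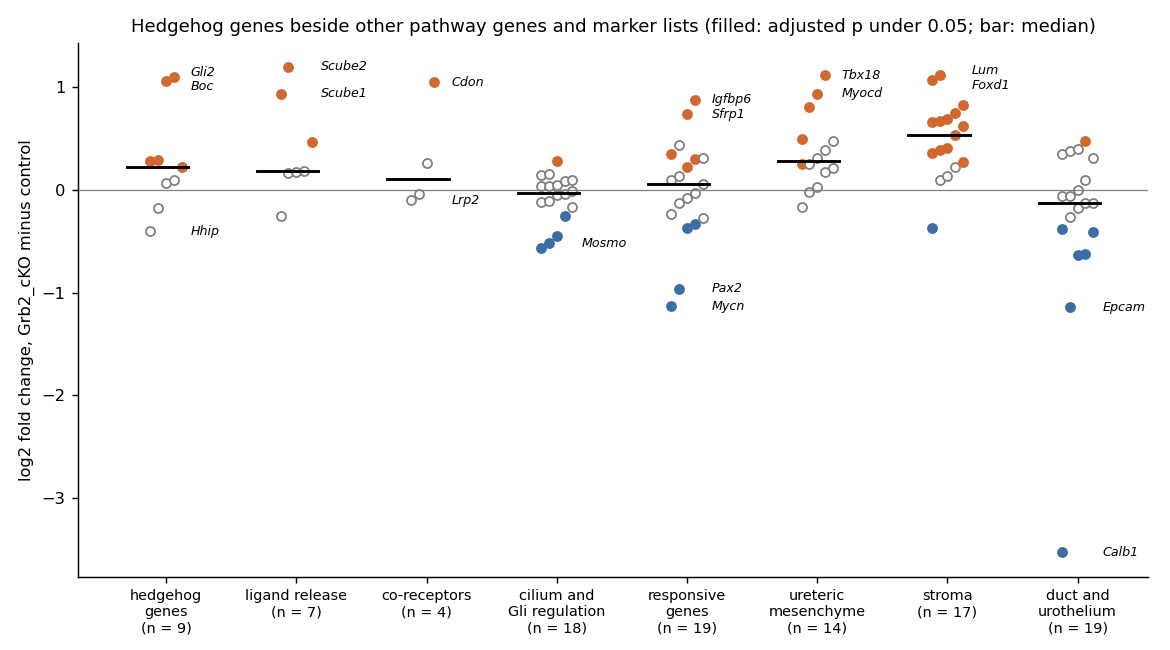
Log2 fold changes, Grb2_cKO minus control, of the 9 hedgehog genes, the other pathway genes by role, the responsive genes and 3 marker lists, with 1 point for each gene and a black bar at the median. Filled points passed the threshold, in orange where higher and in blue where lower. Gli2, Boc, Cdon, Scube1 and Scube2 form the upper edge of the pathway lists. Of the lists drawn, stroma has the highest median, 0.54. The macrophage and erythroid lists, not drawn, had medians of 0.87 and 0.63.

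The genes most like each riser were found by the Euclidean distance between the 8 values of the embryos, each centred on the gene's own mean. Nearest to Boc were Tenm2, Tgfb3 and Cntnap4, at distances of 0.16, 0.187 and 0.193, which stood at 1.01, 1.13 and 1.05 in log2 fold change. Nearest to Gli2 were Six5, Fndc10 and Lcp2, at 0.228, 0.234 and 0.247, with log2 fold changes of 0.99, 1.11 and 1.05. All 6 passed the threshold. For the smaller changes the nearest genes were Zzef1, Heatr5b and Grip1 for Smo (0.107 to 0.12), Ikzf1, Serpina3n and Myf6 for Gli1 (0.13 to 0.191), and Ncoa6, Snx16 and Map4 for Gli3 (0.0701 to 0.0857). Of these, Grip1, Serpina3n and Myf6 did not pass the threshold themselves. None of the 15 is among the pathway genes listed, and the distance was smaller for small changes, so it is to be read within a gene and not between genes.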

How the data were processed

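Log2 probe-set values of 41345 probe sets on 8 arrays were used as the authors deposited them. They were made in the Transcriptome Analysis Console, per the submitters' processing notes, with the version, the background correction, the summarization and the normalization not given in the sources used here. Per the labels' protocols, 200 ng of total RNA of each embryo was amplified and labelled with biotin.

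Of the probe sets, 23521 had 1 gene symbol in the platform's annotation, 1814 several and 16010 none. A gene was read by its brightest single-symbol probe set, on average over the 8 arrays, which left 22180 genes. Symbols were checked through the Entrez gene identifier for 23328 probe sets against RefSeq (GRCm38.p6).

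A linear model with empirical Bayes was fitted in limma 3.58.1 under R 4.3.3, with Grb2_cKO against control as its 1 term. Benjamini-Hochberg adjustment was over all genes at 0.05. The code was also run on simulated data with independent noise and few changed genes. That run does not test the calls here, where 6227 genes passed and sex-linked genes separated the groups in part. SE and intervals are the moderated ones of the model. Differences between 2 genes were tested by a two-sided exact permutation over 70 assignments, with intervals from inverting that test. The hedgehog genes and all lists were chosen with earlier results of these data known. Genes named outside the 9 were up to 4 of smallest p for each list, a fixed set of ureteric mesenchyme genes (Tbx18, Tshz3, Myocd, Bmp4, Foxf1), the sex-linked genes and the 3 nearest in pattern. The other pathway genes named without passing (Gas1, Scube3, Dhh, Sufu, Kif7) were named after their values were seen. So were Csnk1a1, Mtss1, Foxl1, Sall1, Ccnd1, Krt19, Pln, Six2 and Eya1, beyond the 4 of smallest p. The same holds for marker genes named without passing: Upk1a, Upk1b, Upk2, Upk3a, Trp63, Foxa1, Aqp2, Aqp3, Wnt7b, Acta2, Tagln, Myh11, Mylk, Des, Sox10, Foxd3, Tubb3 and Prph. Some genes of the lists are not reported here. Embryos are separate animals, and replicate numbers pair nothing between the groups. Alternatives were other normalizations, a filter on dim genes, the mean of probe sets, other variance models, the Y-linked covariate, a stricter threshold and leaving out each embryo.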

Additional observations from a re-analysis of the deposited data

Results flagged for a closer look

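Over the 105 genes looked at, 210 groups of 4 embryos were searched for 1 embryo far from the other 3, and 12 were found, where chance gives about 1 in 20. Gli2 stood at 10.27 in Grb2_cKO replicate 4 against 9.99 to 10.02 in the other 3. Cdon stood at 11.45 in the same embryo against 11.14 to 11.16. In Grb2_cKO replicate 2, Scube1 stood at 9.24 (others 9.07 to 9.09), Tulp3 at 9.68 (9.90 to 9.93) and Gata3 at 8.08 (8.37 to 8.42). Dab2 stood at 11.02 in Grb2_cKO replicate 1 (11.18 to 11.20), Calb1 at 11.71 in control replicate 1 (11.42 to 11.44) and Krt18 at 9.68 in control replicate 4 (9.89 to 9.91). The other 4 concern control replicate 3: Xist at 5.39 (12.22 to 12.79), Eif2s3y at 9.95 (4.21 to 4.37), Kdm5d at 9.70 (4.16 to 4.22) and Uty at 10.17 (3.80 to 4.36).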

How the results depend on the processing

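The 9 genes kept their direction under all alternatives in which they were tested (Shh is among the dimmest genes and drops out without them), and Boc and Gli2 passed the threshold in each. The number of the 9 past the threshold, 5, became 2 with the Y-linked covariate and 2 at an adjusted p under 0.01. It ran from 2 to 5 when 1 embryo was left out in turn. The median of the 9 genes stayed between 0.20 and 0.26. Over all genes, 6227 passed, against 1246 with the Y-linked covariate and 3809 at 0.01. Of the other pathway genes 9 passed, and 3 with that covariate. Of the responsive genes 9 passed, and 2 with it. With control replicate 3 as the only control, an alternative chosen after seeing the data in which the lone embryo is assumed to vary like the others, 285 genes passed, with 2 of the 9, 3 of the other pathway genes and 1 responsive gene. Reading Shh by the probe set with 2 symbols was also chosen after seeing the data. No paired analysis was possible because the labels give no shared replicate numbers. Without detection calls, it stays unknown whether a dim probe set, such as the single-symbol one of Shh, reads above background.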
